A study of Mus musculus with 20 samples.

Results

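The nuclear genes of the mitochondrial respiratory chain were followed through early testis development and meiosis in the mouse, with the forms of cytochrome c and of cytochrome c oxidase that are known from testis set beside the forms that most tissues use. The genes were chosen by symbol alone, as those that begin with Nduf followed by a, b, c, s or v, with Uqcr, or with Cox followed by 4 to 8, plus Cycs and Cyct. This took in 73 of the 23366 genes of the RNA table. By role they were 7 core subunits of complex I, 29 accessory subunits of complex I, 7 complex I assembly factors (Ndufaf1 to Ndufaf7, which are not subunits of the finished enzyme), 8 genes of complex III, 20 of complex IV and 2 cytochromes c. Ndufa4 and its relative Ndufa4l2 were placed with complex IV, where the NDUFA4 protein is now assigned. RNA was sequenced from wild-type C57BL/6J mice at 5 stages with 2 libraries each. Whole testes were taken at postnatal days 1, 3 and 7. Leptotene and zygotene spermatocytes as a mixed fraction, and pachytene spermatocytes as another, came from adults aged 70 to 80 days. The spermatocytes were separated by size at unit gravity (STA-PUT sedimentation), and their purity was judged under the microscope, per the labels. The labels call the replicates biological but do not say whether animals were pooled, so p-values measure the spread between these libraries. The genes encoded in the mitochondrial genome were not analysed here.

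Complex I takes electrons from NADH, complex III passes them from ubiquinol to cytochrome c, and complex IV (cytochrome c oxidase) hands them to oxygen. The catalytic core of complex IV is encoded in mitochondrial DNA, while its small nuclear subunits, such as those of the 4, 6, 7 and 8 families, occur as alternative forms in heart and muscle, in lung or in testis. In mouse male germ cells the somatic cytochrome c gene Cycs is known to give way to the testis gene Cyct during spermatogenesis, and COX6B2, COX7B2 and COX8C are known as testis forms of complex IV subunits.

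The 4 spermatocyte libraries held 3597360 to 20545793 reads on genes and the 6 testis libraries 6133551 to 22181395. Levels are CPM, read counts relative to the size of the library after TMM scaling, and 71 of the 73 genes passed the filter on low counts, in a table of 16872 genes tested. Cox8b and Ndufs5 did not pass: each had at most 3 counts in any library. Summed levels of 15 spermatid marker genes, such as the protamines Prm1 and Prm2, were 93839 to 98728 CPM in leptotene/zygotene and 11418 to 14266 CPM in pachytene, against 84.0 to 143 CPM in testis. Summed levels of 8 spermatocyte markers were 10856 to 12300 CPM in leptotene/zygotene and 7420 to 9035 CPM in pachytene, against 18.2 to 87.0 CPM in testis. Sycp3 of this list went the other way between the fractions, and the other members are given only in the sum. Sycp3 had 39.9 and 60.3 CPM in leptotene/zygotene and 126 and 211 CPM in pachytene, against 18.2 and 17.6 CPM at day 7. Sertoli cell markers summed to 41.0 to 282 CPM in the spermatocyte libraries and 3300 to 4534 CPM in testis, and 4 fibroblast and matrix genes to 7.16 to 65.2 CPM against 4475 to 10260 CPM. Leydig cell, endothelial and macrophage lists were also lower in every spermatocyte library than in every testis library. The peritubular and smooth muscle list summed to 518 to 628 CPM in leptotene/zygotene and 111 to 143 CPM in pachytene, against 636 to 1316 CPM in testis, and the fat list overlapped (4.82 to 21.2 CPM against 11.1 to 21.5 CPM). The fraction labelled leptotene/zygotene had a higher spermatid marker sum than the pachytene fraction in both libraries. The part of this marker signal in the results was not tested. Fewer cells of a type and less RNA per cell cannot be told apart in such bulk samples.

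The replicates of each spermatocyte stage differed for many of these genes. In leptotene/zygotene 62 of 71 members were higher in replicate 2 than in replicate 1, with a median log2 difference of 1.25, while over 7925 well-measured genes the median was 0.19. In pachytene 55 of 71 members were higher in replicate 2, with a median of 0.73 against -0.10 over those genes. Day 3 testis showed the opposite order, with 5 of 71 members higher in replicate 2 and a median of -0.46, and days 1 and 7 had medians of -0.09 and 0.01. The shares of reads outside genes or unusable for counting were 63.3% and 45.4% in leptotene/zygotene replicates 1 and 2, and 64.5% and 49.0% in pachytene replicates 1 and 2. Calls counted below can depend on a single library, and this is named for only some of the genes. Calls of Ndufs3, Ndufs4, Ndufb5, Ndufa10, Ndufa11 and Ndufaf6 in leptotene/zygotene and of Uqcrb in pachytene, among others, depended on one and are only counted.

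**Figure D1:**
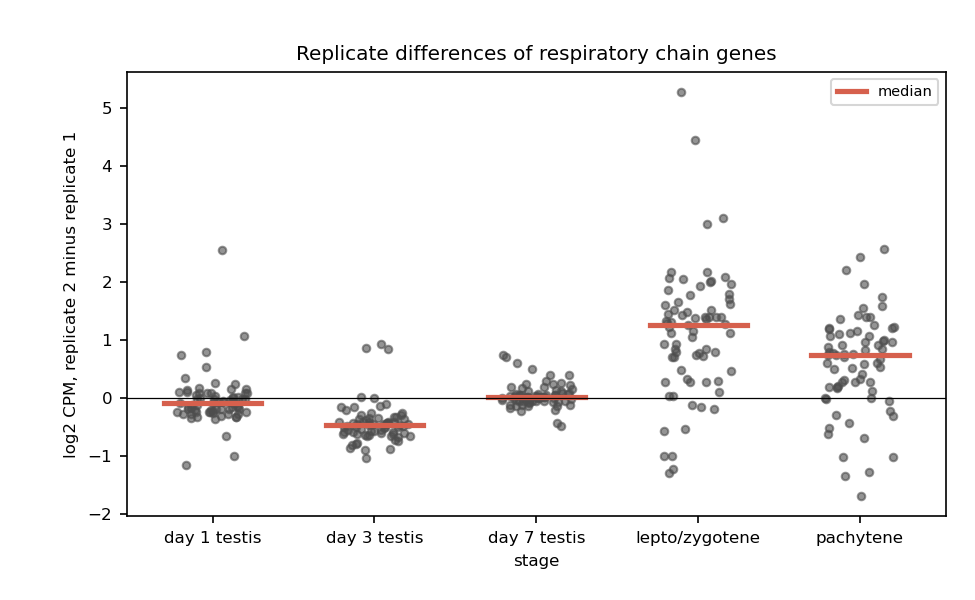
Difference in log2 CPM between replicate 2 and replicate 1 (vertical axis) for the 71 tested genes at each stage (horizontal axis), a point per gene and a bar at the median. The medians are -0.09, -0.46 and 0.01 in day 1, day 3 and day 7 testis, 1.25 in leptotene/zygotene and 0.73 in pachytene spermatocytes.

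RefSeq promoters (GRCm38.p6, the 250 bases before the transcription start) were at hand for 59 of the 73 genes. Those of the cytochrome c pair and of the Cox6b pair are shown here as examples of a testis form and a common form whose RNA moved in opposite directions. The Cox7b pair also fits this description. They lie at chr2:76360454-76360703 (Cyct), chr6:50566570-50566819 (Cycs), chr7:4753095-4753344 (Cox6b2) and chr7:30626115-30626364 (Cox6b1), all on the minus strand, and read 5′ to 3′ up to the base before the start. Capitals mark matches on either strand to the NRF1 motif GCGCATGC, the ETS motif CCGGAAG, the cAMP response element TGACGTCA or the CCAAT box.
Cyct: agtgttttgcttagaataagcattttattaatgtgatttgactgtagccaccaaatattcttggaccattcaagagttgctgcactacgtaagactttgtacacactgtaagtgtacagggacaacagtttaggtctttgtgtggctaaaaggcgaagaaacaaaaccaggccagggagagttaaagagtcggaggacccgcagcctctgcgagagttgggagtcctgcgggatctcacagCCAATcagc
Cycs: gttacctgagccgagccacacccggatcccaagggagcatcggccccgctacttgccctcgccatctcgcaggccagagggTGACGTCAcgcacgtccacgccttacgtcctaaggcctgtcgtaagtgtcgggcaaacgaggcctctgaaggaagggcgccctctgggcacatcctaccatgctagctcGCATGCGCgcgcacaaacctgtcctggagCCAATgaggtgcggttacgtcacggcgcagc
Cox6b2: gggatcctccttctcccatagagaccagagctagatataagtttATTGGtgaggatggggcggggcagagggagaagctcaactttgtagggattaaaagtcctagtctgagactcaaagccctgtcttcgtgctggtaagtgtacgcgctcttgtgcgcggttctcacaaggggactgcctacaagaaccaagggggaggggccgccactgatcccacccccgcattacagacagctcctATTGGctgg
Cox6b1: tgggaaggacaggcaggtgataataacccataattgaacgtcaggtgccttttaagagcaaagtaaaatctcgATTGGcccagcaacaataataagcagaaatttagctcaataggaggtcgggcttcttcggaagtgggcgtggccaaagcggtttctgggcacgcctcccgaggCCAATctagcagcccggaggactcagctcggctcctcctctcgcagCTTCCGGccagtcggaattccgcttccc
Cycs had the NRF1 motif 60 bases before its start, the cAMP response element 169 bases before it and a CCAAT box at 31 bases. An NRF1 site and cAMP response elements are known from the rat somatic cytochrome c promoter. Cyct held only a CCAAT box among these motifs, 9 bases before its start, with 6 CpG dinucleotides against 23 in Cycs and a GC content of 45.6% against 64%. Cox6b2 had CCAAT boxes at 206 and 9 bases and 8 CpG, and Cox6b1 had an ETS motif at 28 bases, CCAAT boxes at 177 and 74 bases and 14 CpG. Other common forms did not share the motifs of Cycs and Cox6b1. Cox7b and Cox8a held only a CCAAT box among these motifs, and Ndufa4 held none. The testis form Cox7b2 held only CCAAT boxes. Over all promoters of the members the NRF1 motif was in 9.84%, against 2.26% of 32851 promoters and 3.82% of those of tested genes. The ETS motif was in 13.1% against 6.91% and 11%, the cAMP response element in 8.2% against 1.55% and 2.35%, and the CCAAT box in 39.3% against 33.8% and 34.7%. The A-MYB core GGCAGTT, searched in the same way, was in 1.64% of member promoters, 3.33% of all promoters and 3.13% of those of tested genes. A match of letters describes these sequences and is not a binding site.

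Cyct, the testis cytochrome c that carries electrons between complexes III and IV in male germ cells, had 0.247 and 2.24 CPM at day 1, 1.83 and 3.42 CPM at day 3 and 6.84 and 7.06 CPM at day 7. Spermatocyte levels of Cyct were 46.2 and 77.3 CPM in leptotene/zygotene and 132 and 126 CPM in pachytene. Every spermatocyte library lay above every testis library. Cycs, the cytochrome c of other tissues, had 2.59 and 1.21 CPM at day 1, 3.50 and 3.50 CPM at day 3 and 2.21 and 3.69 CPM at day 7. Spermatocyte levels of Cycs were 0.486 and 0.10 CPM in leptotene/zygotene and 0.814 and 0.138 CPM in pachytene. Leptotene/zygotene replicate 1 held 1 Cycs read, and its floor of 3 counts is 1.46 CPM, above the 1.21 CPM of day 1 replicate 2, so that its depth does not separate it from that library. Cyct rose in leptotene/zygotene against day 7 testis (log2 fold change 3.16 ± 0.55, edgeR adjusted p = 0.00047) and in pachytene against day 7 (log2 fold change 4.21 ± 0.57, edgeR adjusted p = 0.000104) (± gives the standard error of each fold change). Cycs rested on 2 reads in all in the leptotene/zygotene libraries against 100 reads at day 7, a ratio of 0.0572 after scaling with an exact 95% counting interval of 0.00683 to 0.212. In pachytene, with 5 reads in all, Cycs fell against day 7 (log2 fold change -2.76 ± 0.76, edgeR adjusted p = 0.00775). The Cycs call was lost without replicate 2 of leptotene/zygotene (-2.59, edgeR adjusted p = 0.11) or of pachytene (-1.85, edgeR adjusted p = 0.0748). The reference lists 3 pseudogenes of Cycs, so its counts are uncertain. On the log2 scale the ratio of Cyct to Cycs averaged 6.72 ± 0.87 in the 4 spermatocyte libraries and 0.02 ± 1.27 in the 6 testis libraries (SD).

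Cox6b2, the testis form of subunit VIb on the outer face of complex IV, had 12.0 and 9.84 CPM at day 1, 19.7 and 12.5 CPM at day 3 and 9.82 and 9.89 CPM at day 7. Its levels were 85.6 and 335 CPM in leptotene/zygotene and 102 and 305 CPM in pachytene. Cox6b1, the common form, had 44.1 and 41.4 CPM at day 1, 81.3 and 54.9 CPM at day 3 and 56.5 and 54.4 CPM at day 7. Its levels were 1.46 and 6.61 CPM in leptotene/zygotene and 3.66 and 6.33 CPM in pachytene. The groups did not overlap for either gene, with the spermatocyte libraries above testis for Cox6b2 and below it for Cox6b1. Cox6b2 rose in leptotene/zygotene (log2 fold change 4.43 ± 0.71, edgeR adjusted p = 0.000257) and pachytene (log2 fold change 4.37 ± 0.70, edgeR adjusted p = 0.000309) against day 7, while Cox6b1 fell in both (-3.51 ± 0.48 and -3.44 ± 0.47, edgeR adjusted p = 9.86e-05 and 0.000111). Leptotene/zygotene replicate 2 was higher than replicate 1 in both genes, while their log2 ratio was 5.51 ± 0.07 in leptotene/zygotene, 5.05 ± 0.61 in pachytene and -2.43 ± 0.05 at day 7 (SD, n = 2 each).

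Cox7b2, an autosomal testis relative of subunit VIIb, had 0.616 and 1.47 CPM at day 1, 1.03 and 2.12 CPM at day 3 and 5.74 and 4.18 CPM at day 7. Its levels were 199 and 241 CPM in leptotene/zygotene and 351 and 298 CPM in pachytene. The levels were lowest at day 1 and day 3, and no testis library reached the spermatocyte libraries. Cox7b, the common form and an X-linked gene, had 28.7 and 22.8 CPM at day 1, 48.3 and 31.5 CPM at day 3 and 26.0 and 26.3 CPM at day 7. For Cox7b the leptotene/zygotene libraries gave 0.486 and 0.902 CPM and the pachytene libraries 1.22 and 0.964 CPM, with all spermatocyte libraries below all testis libraries. Cox7b2 rose by 5.47 ± 0.42 log2 units in leptotene/zygotene against day 7 and by 6.03 ± 0.43 in pachytene against day 7 (edgeR adjusted p = 2.41e-06 and 2.09e-06). Cox7b changed by -5.00 ± 0.43 and -4.59 ± 0.40 log2 units (edgeR adjusted p = 4.43e-06 and 5.54e-06), the largest fall in both comparisons among members with more than 3 reads in each stage.

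Cox8c, the testis form of the smallest subunit VIII, had 0.370 and 0.604 CPM at day 1, 0.599 and 1.22 CPM at day 3 and 1.10 and 1.35 CPM at day 7. For Cox8c the leptotene/zygotene libraries gave 280.2 and 533 CPM and the pachytene libraries 488 and 726 CPM. It was the member with the largest rise, at 8.37 ± 0.53 log2 units in leptotene/zygotene and 8.94 ± 0.54 in pachytene against day 7 (edgeR adjusted p = 8.39e-07 and 9.35e-07). Cox8a, the common form, had 69.4 and 54.5 CPM at day 1, 103 and 70.6 CPM at day 3 and 70.7 and 70.8 CPM at day 7. For Cox8a the leptotene/zygotene libraries gave 8.27 and 7.42 CPM and the pachytene libraries 11.4 and 7.02 CPM, and it fell in both (-3.19 ± 0.34 and -2.96 ± 0.33, edgeR adjusted p = 1.76e-05 and 2.55e-05). Neither gene's groups overlapped.

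Ndufa4l2, a paralog of Ndufa4 that is known as a hypoxia-responsive gene in other tissues and not as a testis form, had 4.68 and 4.14 CPM at day 1, 5.93 and 3.09 CPM at day 3 and 1.82 and 3.13 CPM at day 7. For Ndufa4l2 the leptotene/zygotene libraries gave 37.5 and 92.1 CPM and the pachytene libraries 37.0 and 56.0 CPM. Ndufa4 had 37.6 and 32.3 CPM at day 1, 63.9 and 47.5 CPM at day 3 and 43.1 and 43.7 CPM at day 7. Its levels were 2.92 and 1.90 CPM in leptotene/zygotene and 3.26 and 2.07 CPM in pachytene. The spermatocyte libraries lay above testis for Ndufa4l2 and below it for Ndufa4, and the groups did not overlap. Ndufa4l2 rose (4.73 ± 0.55 in leptotene/zygotene and 4.23 ± 0.54 in pachytene against day 7, edgeR adjusted p = 3.11e-05 and 6.45e-05) and Ndufa4 fell (-4.30 ± 0.37 and -4.05 ± 0.34, edgeR adjusted p = 4.19e-06 and 4.97e-06).

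**Figure D2:**
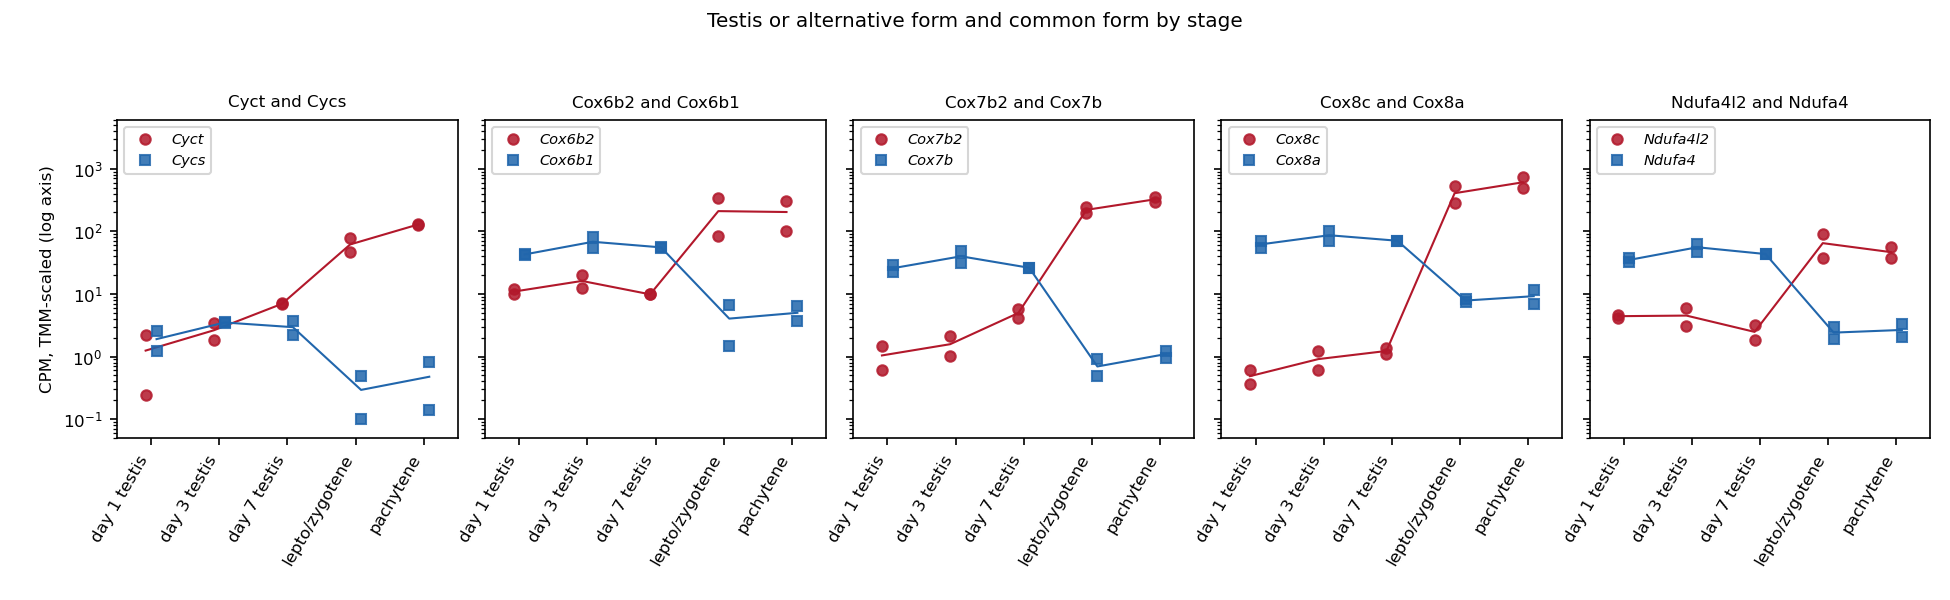
TMM-scaled CPM on a log axis (vertical) by stage (horizontal) for 5 pairs of an alternative form (circles) and the common form (squares), a point per library and a line through the stage means. In each pair the alternative form is higher and the common form lower in the 4 spermatocyte libraries than in the 6 testis libraries, as in Cox8c at 280 to 726 CPM against 0.370 to 1.35 CPM.

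Levels of different genes were compared only to name the highest mean CPM of a class, without regard to transcript length. The ratio of 2 genes can be compared between libraries. For each of 10 pairs of an alternative and a common form, log2 of the ratio of CPM, with 0.5 CPM added to each, was set for the 4 spermatocyte against the 6 testis libraries by an exact two-sided permutation test. The smallest p the 210 splits allow is 0.00952, which is 0.0136 after Benjamini-Hochberg adjustment over the 10 pairs here. The spermatocyte minus testis difference was 6.70 for Cyct over Cycs, 7.42 for Cox6b2 over Cox6b1, 11.19 for Cox7b2 over Cox7b, 11.53 for Cox8c over Cox8a and 7.56 for Ndufa4l2 over Ndufa4, each with an adjusted exact permutation p of 0.0136. Over the alternatives it ranged over 5.15 to 7.87 for Cyct over Cycs, 9.46 to 12.00 for Cox7b2 over Cox7b and -5.47 to -2.62 for Cox7a1 over Cox7a2, whose lower members are near the 0.5 CPM added. The testis libraries come from 3 stages and the spermatocyte libraries from 2, so this compares kinds of sample. The test treats libraries as interchangeable, while same-numbered spermatocyte libraries deviated together between stages (correlation 0.797). Any pair whose ratios separate the 2 kinds fully reaches the smallest p. Of all genes tested, 32.9% lay above and 37.8% below every testis library in all 4 spermatocyte libraries. Against day 7 testis alone the difference was 5.57 for Cyct over Cycs and 9.91 for Cox7b2 over Cox7b, below the values over all testis libraries, with no test.

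No form known from heart and muscle was called higher in spermatocytes, and Cox7a1 was lower on few reads. Cox7a1, the heart and muscle form of subunit VIIa, had 0 and 0.200 CPM in leptotene/zygotene and 0 CPM in both pachytene libraries, against 0.863 to 2.64 CPM in testis, and its ratio to the liver form Cox7a2 differed by -3.75 between spermatocyte and testis libraries (adjusted exact permutation p = 0.0136). With 2 reads in leptotene/zygotene against 76 at day 7 the scaled ratio of Cox7a1 was 0.0752 (exact 95% interval 0.00895 to 0.281), and with no read in pachytene it was at least 8.97-fold lower than at day 7, taking 3 counts over the stage. Cox7a2 itself was higher in every spermatocyte library (85.7 to 264 CPM) than in every testis library (28.0 to 57.6 CPM). Cox7a2 rose in leptotene/zygotene (log2 fold change 2.17 ± 0.50, edgeR adjusted p = 0.00262), and in pachytene (log2 fold change 1.76 ± 0.49, edgeR adjusted p = 0.00835) with a call that was lost without pachytene replicate 2 (1.09, edgeR adjusted p = 0.0909). The leptotene/zygotene call of Cox7a2 was lost with plain library sizes (0.74, edgeR adjusted p = 0.157), and so was the pachytene call (0.94, edgeR adjusted p = 0.0834).

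Cox4i2, the lung form of subunit IV, was at 0.138 to 0.973 CPM in the spermatocyte libraries and 1.04 to 1.73 CPM in testis. It rested on 2 and 4 reads in the leptotene/zygotene libraries and 3 and 1 reads in the pachytene libraries. The floor of 3 counts in leptotene/zygotene replicate 1 is 1.46 CPM, within that testis range. The ratio of Cox4i2 to the common Cox4i1 differed by -1.56 (adjusted exact permutation p = 0.0357). Leaving out a library lost this call in 7 of 10 cases, with adjusted p values up to 0.0893 over the alternatives. Cox6a2, the heart and muscle form of subunit VIa, was low throughout, at 0.486 to 1.10 CPM in spermatocyte and 0.488 to 1.36 CPM in testis libraries, and its ratio to Cox6a1 differed by 0.36 (adjusted exact permutation p = 0.162). With plain library sizes this pair passed (0.81, adjusted exact permutation p = 0.0476). Cox7a2l, which is known as a factor in joining complexes III and IV, was at 53.7 to 134 CPM in spermatocyte and 42.3 to 85.1 CPM in testis libraries, and its ratio to Cox7a2 differed by -1.24 (adjusted exact permutation p = 0.0847). Cox8b had at most 2 reads in any library, so the difference of 2.79 in its ratio to Cox8a (adjusted exact permutation p = 0.0136) follows Cox8a. Of the heart and muscle genes used as markers, the summed level was 6.71 to 17.6 CPM in spermatocyte and 16.6 to 33.0 CPM in testis libraries, and 3 brown fat markers summed to 0.486 to 1.24 CPM and 4.23 to 23.5 CPM.

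Over the whole set, 33 of the 71 tested members (46.5%) passed the edgeR test between leptotene/zygotene and day 7 testis, 19 higher and 14 lower, where 78.5% of all genes tested did, 36.5% higher and 42% lower. The members' median log2 fold change was 0.52, against -0.31 for all genes tested. Without leptotene/zygotene replicate 2 it was -0.38, against -0.53 for all genes. With a replicate block within the spermatocyte stages it was -0.22, against -0.40 for all genes. Between pachytene and day 7 it was again 33 of 71, 21 higher and 12 lower, against 75.2% of all genes, 35.1% higher and 40.1% lower, with medians of 0.56 and -0.27. Without pachytene replicate 2 the members' median was 0.02, against -0.31 for all genes, and with that block it was -0.09, against -0.37. The sign or size of the members' median thus depends on replicate 2 of the spermatocyte stage. These comparisons share the day 7 libraries. In a comparison of libraries with no fit, 16 members were higher in all 4 spermatocyte than in all 6 testis libraries, 13 were lower and 42 overlapped, against 32.9% of all genes higher and 37.8% lower. The split depends on scaling: in leptotene/zygotene against day 7 it was 31 higher and 12 lower with median-ratio size factors, 15 and 18 with upper-quartile factors and 8 and 34 with plain library sizes, which moved the median of all genes by 0.32, -0.39 and -1.41. With plain sizes, calls over all genes were 4183 higher and 9928 lower, against 6163 and 7082 with TMM. In pachytene against day 7 the members split into 28 higher and 11 lower with median-ratio factors, 19 and 17 with upper-quartile factors and 11 and 21 with plain sizes, which called 4521 genes higher and 8810 lower, against 5920 and 6760 with TMM. The median of all genes then moved by 0.27, -0.26 and -0.83.

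**Figure D3:**
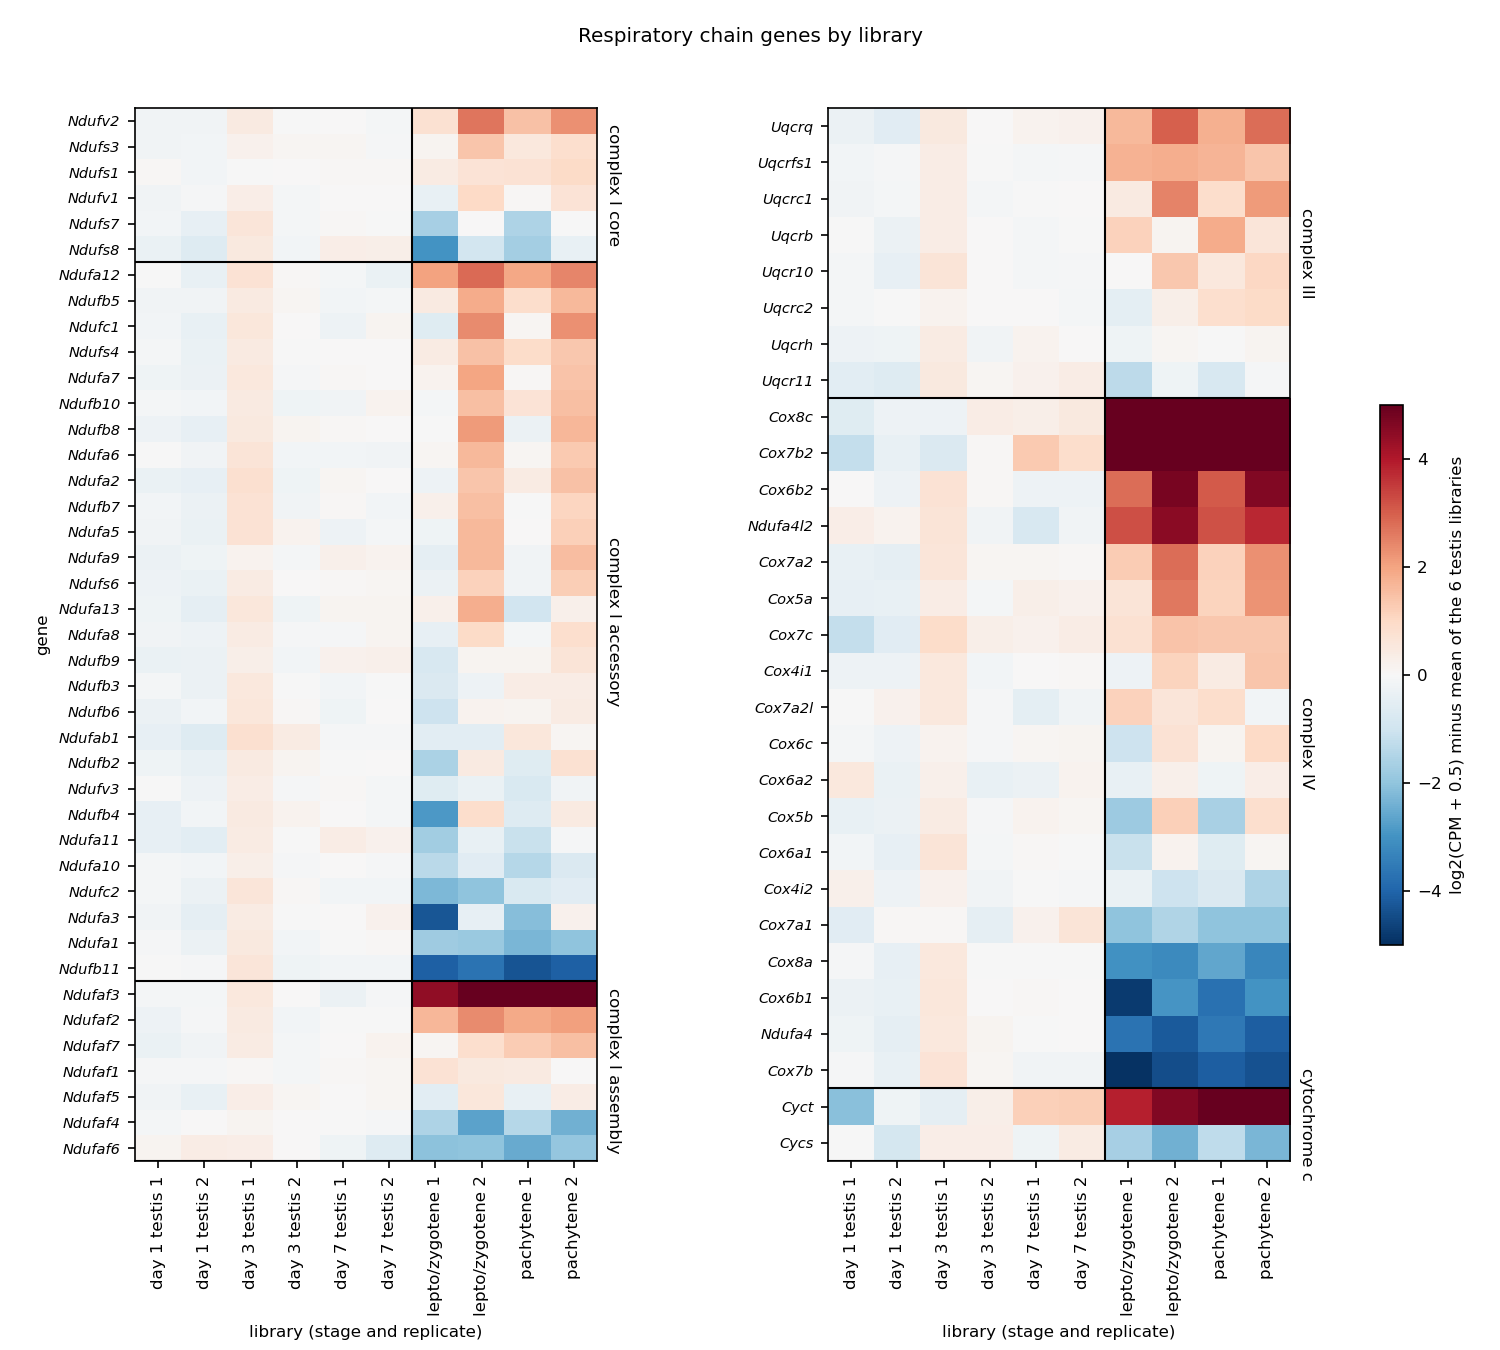
log2(CPM + 0.5) of 70 of the 71 tested genes, each relative to its mean over the 6 testis libraries (colour, cut at -5 and 5), in the 10 libraries (columns, in stage order) and by class (rows, sorted by the spermatocyte mean). In the spermatocyte columns 16 rows are higher and 13 lower in all 4 libraries than in every testis library.

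Of the 7 core subunits of complex I, 2 rose and 1 fell in leptotene/zygotene against day 7, and 2 rose in pachytene, which is 42.9% and 28.6% called where 78.5% and 75.2% of all genes were. Ndufv2, an iron-sulfur subunit of the NADH-binding arm, rose in leptotene/zygotene (72.0 and 273 CPM against 42.3 and 38.9 CPM at day 7, log2 fold change 2.10 ± 0.53, edgeR adjusted p = 0.00475), a call lost without leptotene/zygotene replicate 2 (0.81, edgeR adjusted p = 0.0766). In pachytene Ndufv2 had 118 and 209.5 CPM (log2 fold change 2.01 ± 0.53, edgeR adjusted p = 0.00635), and this call too was lost without replicate 2 (1.52, edgeR adjusted p = 0.0508). Ndufs8, an iron-sulfur subunit, fell in leptotene/zygotene (3.40 and 15.8 CPM against 38.4 and 36.9 CPM at day 7, log2 fold change -1.80 ± 0.58, edgeR adjusted p = 0.0165), and in pachytene it differed by -1.21 ± 0.56 without passing the test.

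Of 28 tested accessory subunits, 3 rose and 5 fell in leptotene/zygotene, and 3 rose and 3 fell in pachytene, against day 7. These are 28.6% and 21.4% called, where 78.5% and 75.2% of all genes were. The largest rise was that of Ndufa12, at 51.1 and 91.2 CPM in leptotene/zygotene and 49.0 and 69.4 CPM in pachytene against 11.4 and 9.71 CPM at day 7 (2.77 ± 0.38 and 2.49 ± 0.37 log2 units, edgeR adjusted p = 9.02e-05 and 0.000191). A pseudogene of Ndufa12 is annotated, which makes its counts uncertain. Ndufb11 and Ndufa1, both X-linked, fell and are described with the X chromosome below. Ndufc2, a subunit of the membrane arm, had 9.73 and 11.7 CPM in leptotene/zygotene, against 43.9 and 43.9 CPM at day 7 (log2 fold change -2.01 ± 0.28, edgeR adjusted p = 0.000118), with no overlap. Ndufb9, the accessory subunit with the highest mean level, had 37.0 and 70.0 CPM in leptotene/zygotene and 69.4 and 99.5 CPM in pachytene, against 75.1 and 76.7 CPM at day 7, and passed no test. Several others differed mostly by replicate, such as Ndufb8 with 40.9 and 184 CPM in leptotene/zygotene and 34.4 and 135 CPM in pachytene, against 43.1 and 42.3 CPM at day 7.

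Among the 7 complex I assembly factors, 2 rose and 2 fell in leptotene/zygotene and 3 rose and 2 fell in pachytene. These are 57.1% and 71.4% called, where 78.5% and 75.2% of all genes were. Ndufaf3, which acts early in joining the quinone module to the membrane arm, had 5.92 and 5.95 CPM at day 1, 9.43 and 6.59 CPM at day 3 and 5.24 and 6.20 CPM at day 7. Spermatocyte levels of Ndufaf3 were 151 and 404 CPM in leptotene/zygotene and 272 and 512 CPM in pachytene. Its rise of 5.60 ± 0.55 log2 units in leptotene/zygotene and 6.10 ± 0.56 in pachytene against day 7 (edgeR adjusted p = 1.01e-05 and 7.90e-06) was second to that of Cox8c, and the groups did not overlap. Ndufaf2, an assembly factor related to Ndufa12, also rose, by 2.13 ± 0.32 and 2.03 ± 0.32 (edgeR adjusted p = 0.000184 and 0.000268). Ndufaf4, which works with Ndufaf3, had 6.32 and 2.61 CPM in leptotene/zygotene and 6.92 and 3.30 CPM in pachytene, against 19.1 and 18.8 CPM at day 7, and fell in both (-2.29 ± 0.47 and -1.92 ± 0.43, edgeR adjusted p = 0.00129 and 0.00259). For both partners all 4 spermatocyte libraries lay outside the testis range, above it for Ndufaf3 and below it for Ndufaf4.

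Of 8 complex III genes, 3 rose in leptotene/zygotene and 5 in pachytene against day 7, and none fell. Among all genes 36.5% rose and 42% fell in leptotene/zygotene and 35.1% rose and 40.1% fell in pachytene, so that 3 of 8 higher (37.5%) is near the share of all genes. Uqcrfs1, the Rieske iron-sulfur protein, was at 244 and 261 CPM in leptotene/zygotene and 238 and 191 CPM in pachytene, against 67.6 and 70.6 CPM at day 7 (1.87 ± 0.24 and 1.63 ± 0.24 log2 units, edgeR adjusted p = 6.59e-05 and 0.000173), with no overlap with testis. With plain library sizes the leptotene/zygotene difference was 0.49 (edgeR adjusted p = 0.0734). Uqcrq, a small subunit near cytochrome b, had 112 and 294 CPM in leptotene/zygotene and 127 and 253 CPM in pachytene, against 41.5 and 42.3 CPM at day 7 (2.29 ± 0.47 and 2.18 ± 0.47, edgeR adjusted p = 0.00134 and 0.0019). Uqcrq too lost its leptotene/zygotene call with plain sizes (0.86, edgeR adjusted p = 0.0870). Uqcrc1, a core protein and the complex III gene with the highest mean level, had 125 and 504 CPM in leptotene/zygotene and 166 and 398 CPM in pachytene, against 88.4 and 91.3 CPM at day 7. Its calls (1.81 ± 0.59 and 1.65 ± 0.58, edgeR adjusted p = 0.0164 and 0.0259) were lost without replicate 2 of the spermatocyte stage compared (0.45, edgeR adjusted p = 0.393, and 0.87, edgeR adjusted p = 0.244) and without either day 7 library (1.64 and 1.67 in leptotene/zygotene, edgeR adjusted p = 0.0958 and 0.0908).

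In complex IV 13 of 19 tested genes passed in each comparison against day 7 (68.4%, where 78.5% and 75.2% of all genes did), with 8 higher and 5 lower in leptotene/zygotene and 7 higher and 6 lower in pachytene. The 5 that fell in leptotene/zygotene were Cox7b, Ndufa4, Cox6b1, Cox8a and Cox7a1, and these fell in pachytene too, together with Cox4i2, whose call was lost without pachytene replicate 2 (-1.10, edgeR adjusted p = 0.258) and without either day 7 library. Beside Cox8c, Cox7b2, Cox6b2 and Ndufa4l2, the genes that rose in both were Cox7a2, Cox5a and Cox7c, and Cox7a2l rose in leptotene/zygotene alone, without a test of the difference. Cox5a, a common subunit with no testis form, had 66.6 and 266 CPM in leptotene/zygotene and 91.4 and 203 CPM in pachytene, against 51.2 and 49.3 CPM at day 7, and its calls were lost without either day 7 library and without replicate 2 of the spermatocyte stage (0.39, edgeR adjusted p = 0.448, and 0.85, edgeR adjusted p = 0.254). The rises of Cox7c and Cox7a2l in leptotene/zygotene (0.99 and 1.25) turned to -0.43 and -0.11 with plain library sizes. Both calls were also lost without either day 7 library, and that of Cox7c without most of the other single libraries. Cox4i1, the common form of subunit IV, had 124 and 325 CPM in leptotene/zygotene and 196 and 389 CPM in pachytene, against 150.2 and 155 CPM at day 7, without a call. Cox6a1, the common partner of Cox6a2, had 47.2 and 118 CPM in leptotene/zygotene and 68.0 and 113 CPM in pachytene, against 107 and 102 CPM at day 7, and passed no test.

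**Figure D4:**
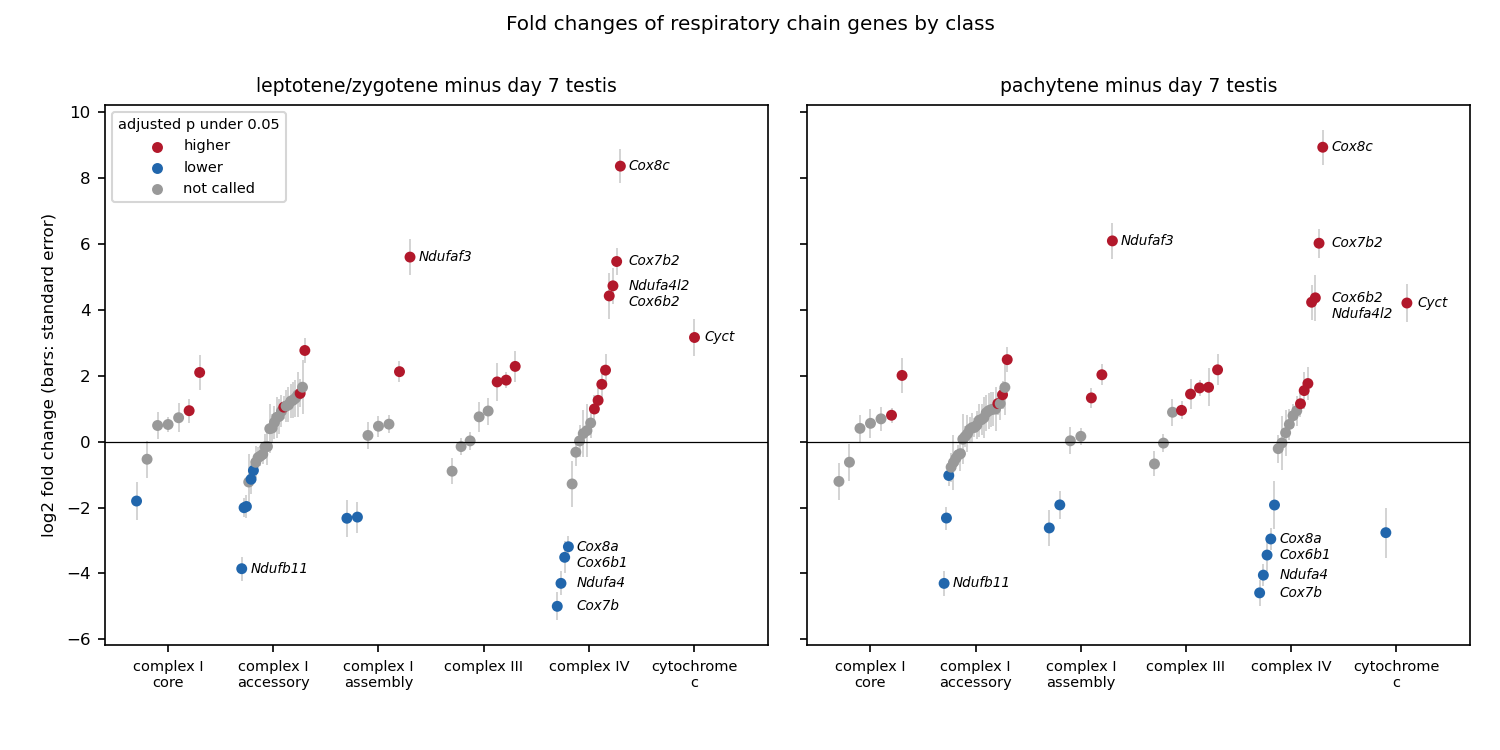
log2 fold change with its standard error (vertical axis) of the tested genes by class (horizontal axis), for leptotene/zygotene minus day 7 testis (left) and pachytene minus day 7 testis (right), coloured by the edgeR call at an adjusted p of 0.05. Cox7a1 in both panels and Cycs in the left panel are left out because a stage held 3 reads or fewer. Complex IV spans from -5.00 (Cox7b) to 8.37 (Cox8c) on the left, and most complex I subunits lie within the range of -2 to 2.

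The X chromosome carried 3 members, Cox7b, Ndufb11 and Ndufa1, and is known to be silenced in pachytene spermatocytes. Ndufb11, an accessory subunit of the membrane arm, had 48.3 and 46.9 CPM at day 1, 74.7 and 42.3 CPM at day 3 and 45.0 and 45.5 CPM at day 7. Spermatocyte levels of Ndufb11 were 2.43 and 3.41 CPM in leptotene/zygotene and 2.03 and 2.48 CPM in pachytene. Ndufa1, a small membrane subunit needed for assembly, had 15.5 and 12.9 CPM at day 1, 22.4 and 14.3 CPM at day 3 and 15.6 and 16.8 CPM at day 7. Its levels were 4.38 and 4.01 CPM in leptotene/zygotene and 2.85 and 3.58 CPM in pachytene. All 3 genes fell in both spermatocyte stages against day 7 and lay below testis in every spermatocyte library. The log2 fold changes of Ndufb11 were -3.86 ± 0.37 and -4.30 ± 0.37 and those of Ndufa1 -1.97 ± 0.35 and -2.32 ± 0.35 (edgeR adjusted p = 8.52e-06, 5.33e-06, 0.000561 and 0.000197). Of the 686 X-linked genes tested, 439 fell and 146 rose in leptotene/zygotene against day 7, with a median of -2.84, and 486 fell and 124 rose in pachytene, with a median of -3.06, while autosomal genes had medians of -0.23 and -0.18. In pachytene against leptotene/zygotene 142 of these X-linked genes fell and 11 rose. None of the 3 X-linked members passed between those stages, with log2 fold changes from -0.45 to 0.41. Among the 68 tested autosomal members the median was 0.55 in leptotene/zygotene and 0.66 in pachytene, with 19 higher and 11 lower in leptotene/zygotene and 21 higher and 9 lower in pachytene. These are 44.1% called in each, where 78.2% and 74.5% of the 16107 autosomal genes tested were. Of those genes 5982 rose and 6614 fell in leptotene/zygotene, and 5763 rose and 6244 fell in pachytene. The common forms Cox6b1, Cox8a, Ndufa4 and Cycs, which also fell, are autosomal, on chromosomes 7, 19, 6 and 6.

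Between the spermatocyte stages 2 of 71 (2.82%) rose in pachytene against leptotene/zygotene and none fell, where 22.2% of all genes passed, 9.03% higher and 13.2% lower. With a replicate block within the spermatocyte stages, added after the libraries numbered alike were seen to deviate together, 9 members rose and 1 fell. Ndufc2 rose to 28.7 and 32.8 CPM in pachytene, against 9.73 and 11.7 CPM in leptotene/zygotene (log2 fold change 1.49 ± 0.29, edgeR adjusted p = 0.00662), still below all testis libraries. Uqcrc2, a core protein of complex III, had 153 and 166 CPM in pachytene, against 60.8 and 105 CPM in leptotene/zygotene (log2 fold change 0.93 ± 0.28, edgeR adjusted p = 0.0393), a call lost without leptotene/zygotene replicate 1 (0.59, edgeR adjusted p = 0.0796) and without either pachytene library (0.99, edgeR adjusted p = 0.0817, and 0.86, edgeR adjusted p = 0.109). Ndufa13, a complex I subunit, was the only member lower at an unadjusted p below 0.05 in edgeR (-1.48 ± 0.54, edgeR adjusted p = 0.0766), and DESeq2 called it lower (-1.49, adjusted p = 0.0324). With plain library sizes 11 members were higher and none lower, and calls over all genes split 3729 higher and 1107 lower, against 1524 and 2220 with TMM. None of the 5 alternative forms passed between these stages without that block: the log2 fold changes were 1.05 ± 0.51 for Cyct, 0.57 ± 0.37 for Cox8c, 0.55 ± 0.35 for Cox7b2, -0.06 ± 0.61 for Cox6b2 and -0.50 ± 0.46 for Ndufa4l2. With the block Cyct (1.07, edgeR adjusted p = 0.0284) and Cox8c (0.62, edgeR adjusted p = 0.0400) rose. Cyct also passed without either day 1 library (1.21 in both, edgeR adjusted p = 0.0458 and 0.0459), and Cyct, Cox8c and Cox7b2 passed with plain library sizes. The spermatid marker sum was 11418 to 14266 CPM in pachytene and 93839 to 98728 CPM in leptotene/zygotene. The part of this in these values was not tested.

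No member passed between day 3 and day 1 with edgeR, where 0% of all genes passed. Unadjusted p values below 0.05 were found for 4 members and 1097 genes, and with DESeq2 79 genes and no member passed. The members' median log2 fold change was 0.48, against -0.004 for all genes. Without day 3 replicate 1 it was 0.24, against 0.03 for all genes. Between day 7 and day 3 the members' median was -0.22, against -0.02 for all genes, and without day 3 replicate 1 it was -0.06, against -0.08. No member passed between these days with edgeR, against 1.49% of all genes. Unadjusted p values below 0.05 were found for 3 of 71 members and 2395 of 16872 genes, and with DESeq2 1026 genes and 1 member, Cox7b2, passed. Cox7b2 had 5.74 and 4.18 CPM at day 7 and 1.03 and 2.12 CPM at day 3, a log2 fold change of 1.73 ± 0.41 (edgeR adjusted p = 0.075). Cyct had 6.84 and 7.06 CPM at day 7 and 1.83 and 3.42 CPM at day 3 (1.45 ± 0.56, edgeR adjusted p = 0.265). Ndufab1, the mitochondrial acyl carrier protein, was the remaining one, with 1.54 and 1.54 CPM at day 7 and 3.20 and 2.36 CPM at day 3 (-0.86 ± 0.38, edgeR adjusted p = 0.348).

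Genes of the same pathway outside the symbol rule were read from the same fit, in which 78.5% of all genes passed between leptotene/zygotene and day 7, 75.2% between pachytene and day 7 and 22.2% between the spermatocyte stages. None of 4 complex II genes rose in leptotene/zygotene against day 7, and Sdhd (-0.86) and Sdhc (-0.61) fell; in pachytene against leptotene/zygotene these 2 rose (1.14 and 0.88). Of 5 further genes, 4 fell in each spermatocyte stage against day 7, among them Cyc1, the heme-bearing cytochrome c1 of complex III (-2.20 in leptotene/zygotene and -1.45 in pachytene), Hccs, the X-linked enzyme that attaches heme to cytochrome c (-3.89 and -3.13), and Etfa of the electron transfer flavoprotein (-3.62 and -3.35). The edgeR adjusted p values of these falls lay between 4.97e-06 (Etfa in leptotene/zygotene) and 0.00352 (Hccs in pachytene). Cyc1 averaged 19.7 CPM in leptotene/zygotene and 92.5 CPM at day 7. Of 11 tested complex IV assembly genes, 1 rose and 4 fell in leptotene/zygotene and 3 rose and 5 fell in pachytene, with the largest leptotene/zygotene falls in Cox15 (-4.00) and Sco1 (-3.33), which supply heme A and copper, and in Cox14 (-2.88). Complex III assembly had 1 rise and 2 falls among 3 tested genes in leptotene/zygotene, the falls in Ttc19 (-1.61) and Bcs1l (-1.37), and 2 falls in pachytene.

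Of 16 tested genes whose symbol begins with Atp5, most of them ATP synthase subunits, 5 rose and 2 fell in leptotene/zygotene and 4 rose and 1 fell in pachytene against day 7. These are 43.8% and 31.2% called, where 78.5% and 75.2% of all genes were. The subunit c genes moved apart in leptotene/zygotene, with Atp5g3 at -2.74 and Atp5g1 at 2.36, and the coupling factor gene Atp5s rose by 2.90. Of 12 regulators of mitochondrial biogenesis, 5 rose and 5 fell in leptotene/zygotene and 3 rose and 2 fell in pachytene, or 83.3% and 41.7% called against 78.5% and 75.2% of all genes. Pprc1, a coactivator of the PGC-1 family, fell (-4.17 and -3.64), and Nrf1, the factor whose motif was searched above, fell by less (-0.81 and -1.14). Tfam, the packaging and transcription factor of mitochondrial DNA, averaged 297 CPM in leptotene/zygotene and 47.9 CPM at day 7 (2.63), and 36.5 CPM in pachytene, where it fell against leptotene/zygotene (-3.03 ± 0.31, edgeR adjusted p = 0.000765).

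Among 5 mitochondrial genes outside the chain from families with a testis form, Pdha2, the autosomal testis form of the pyruvate dehydrogenase E1 alpha subunit, averaged 319.7 CPM in leptotene/zygotene and 489 CPM in pachytene, against 9.33 CPM at day 7 (5.10 ± 0.32 and 5.71 ± 0.33 log2 units, edgeR adjusted p = 8.29e-07 and 8.01e-07). Its X-linked counterpart Pdha1 fell (-4.06 ± 0.83 and -4.97 ± 0.84, edgeR adjusted p = 0.00134 and 0.000433). Slc25a4, the heart and muscle ADP/ATP carrier, averaged 5.64 CPM in leptotene/zygotene and 12.1 CPM in pachytene, against 139 CPM at day 7, and fell in both (-4.86 ± 0.56 and -3.54 ± 0.49). Slc25a31, the testis ADP/ATP carrier, averaged 55.4 CPM in leptotene/zygotene, 124 CPM in pachytene and 58.0 CPM at day 7. It rose in pachytene against day 7 (1.09 ± 0.33, edgeR adjusted p = 0.0128) and against leptotene/zygotene (1.17 ± 0.34, edgeR adjusted p = 0.035), and did not pass between leptotene/zygotene and day 7 (-0.07 ± 0.33). In the whole list 1 gene rose and 3 fell in leptotene/zygotene and 2 rose and 3 fell in pachytene. This is 80% and 100% called, where 78.5% and 75.2% of all genes were. Of 8 membrane and import genes, 4 rose and 4 fell in leptotene/zygotene, and 4 rose and 3 fell in pachytene (100% and 87.5% called). Tomm22, a receptor of the outer membrane translocase, was at 3.34 ± 0.30 and the prohibitin gene Phb at -5.68 ± 0.60 in leptotene/zygotene.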

How the data were processed

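RNA sequencing of 10 libraries, 2 at each of 5 stages, was analysed from a table of read counts per gene that the authors deposited. HTSeq 0.6.1, Bowtie 0.12.7, BWA 0.7.8, edgeR 3.6.8 and the mm9 build are named in the submitters' processing notes, which give neither their roles nor the use of strand. The 5 summary rows of the counter, with 44.7 to 64.5% of reads per library, were left out. Genes were filtered by stage (filterByExpr, minimum count 10), scaled by TMM and fitted in one edgeR 4.0.16 quasi-likelihood model over all libraries with 5 residual degrees of freedom (R 4.3.3). Calls use a Benjamini-Hochberg adjusted p below 0.05 over 16872 genes. DESeq2 1.42.0 was an alternative. A library's floor of 3 counts was 0.0999 to 1.46 CPM, and counting intervals cover counting error only. Pairs of forms were compared with exact permutation tests (SciPy 1.17.1).

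The members and lists were chosen with earlier results of these data known. Named by rule were the paired forms, the 6 largest rises and falls of at least 5 CPM in a stage against day 7, X-linked members, the gene with the highest mean of each class and members passing between spermatocyte stages. A gene that this rule names is not reported here. Others, such as Ndufa12, Ndufv2, Ndufs8, Ndufb8, Ndufaf2, Uqcrq, Uqcrfs1, Cox5a, Ndufa13 and Ndufab1, were chosen after their values were seen. Counts of genes with near-identical copies (Cox7c, Cox5b, Cox6c, Ndufb4, Ndufab1, Ndufa11, Ndufa12, Uqcrh, Ndufs5, Ndufs6 and Cycs) are uncertain. Chromosomes came from RefSeq by symbol for 23210 of 23366 genes.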

Additional observations from a re-analysis of the deposited data

How the results depend on the processing

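The isoform ratios kept their direction in every alternative run for Cyct, Cox6b2, Cox7b2, Cox8c and Ndufa4l2 against their common forms, with adjusted exact permutation p values of 0.0136 to 0.0340 where a test was possible, and 7 to 8 of the 10 pairs passed. A ratio within a library depends on scaling only through the 0.5 CPM added, so the other scalings probe it little. The pairs that passed include Cox8b over Cox8a, which follows Cox8a. Cox4i2 over Cox4i1 was the pair lost, and with plain sizes Cox6a2 over Cox6a1 passed in its place. Against day 7, 8 of the 19 members called higher and 10 of the 14 called lower in leptotene/zygotene kept their call in all 20 alternatives, as did 10 of 21 and 9 of 12 in pachytene. The number of members called higher in leptotene/zygotene against day 7 was 31 with median-ratio factors, 8 with plain library sizes and 33 with DESeq2, and the number called lower was 34 with plain sizes. In pachytene against day 7, plain sizes gave 11 higher and 21 lower. Plain sizes also turned Cox7a2l to -0.11 in leptotene/zygotene. In pachytene against leptotene/zygotene, 4 members were higher with upper-quartile factors, 11 with plain sizes, 1 with no filter and 0 with only the stages compared, which called 930 genes, and DESeq2 called 1 member lower. Between day 7 and day 3, calls over all genes were 437 with no filter, 1019 with only the stages compared and 1026 with DESeq2, with 1 member higher with no filter and 1 with DESeq2, and between day 3 and day 1 DESeq2 called 79 genes. The cause of these shifts was not tested. Leaving out each library in turn gave 0 to 35 genes between day 3 and day 1, and 0 to 632 genes and 0 to 1 members higher between day 7 and day 3. It gave 11724 to 13736 genes, 12 to 35 members higher and 12 to 19 lower in leptotene/zygotene against day 7, and 2076 to 5071 genes, 1 to 5 members higher and 0 to 1 lower in pachytene against leptotene/zygotene. In pachytene against day 7 it gave 11122 to 13372 genes, 13 to 28 members higher and 10 to 13 lower. A stage left with 1 library was assumed to vary like the others.

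The labels do not pair replicate numbers across stages. With the replicate number as a block over all stages, 18 members were higher and 15 lower in leptotene/zygotene against day 7, 22 and 12 in pachytene against day 7, and 2 and 0 between them. Over all genes 13207, 12653 and 3663 of 16872 passed in these comparisons. Deviations of same-numbered libraries correlated at 0.797 between the spermatocyte stages and at -0.20 to 0.11 between other stages. After this was seen, a replicate block within the spermatocyte stages was added. It gave 19 members higher and 24 lower in leptotene/zygotene and 22 higher and 23 lower in pachytene against day 7, 9 higher and 1 lower of 6366 genes between them, 2 members higher of 2042 genes between day 7 and day 3, and 85 genes between day 3 and day 1. Over all genes this block called 13131 of 16872 in each spermatocyte stage against day 7. Spermatocyte libraries numbered 2 alone, also added after the data were seen, gave 43 members higher and 12 lower in leptotene/zygotene and 40 higher and 12 lower in pachytene against day 7, 1 lower between them, and 1834 genes with 1 member higher between day 7 and day 3. Libraries numbered 1 alone gave 16 members higher and 22 lower in leptotene/zygotene and 24 higher and 17 lower in pachytene against day 7, 2290 genes between the spermatocyte stages, and 1897 genes with 1 member higher between day 7 and day 3. Both settings gave 4 genes between day 3 and day 1. Depth limits Cycs, Cox7a1, Cox8b and Ndufs5, whose levels in spermatocytes rest on 5 reads or fewer per stage, and Cox4i2, with at most 4 reads in any spermatocyte library.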
